A study of Mus musculus with 23 samples.

Results

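A set of 8 genes of vesicle traffic at the vessel wall was followed through single cells of the mouse brain: the caveola genes Cav1, Cav2, Cavin1, Cavin2, Cavin3 and Ehd2, the lipid transporter gene Mfsd2a, and Plvap. They were taken by symbol from the 32285 genes of the deposited feature list, in which each of the 8 symbols has 1 row. Cav1 (ENSMUSG00000007655) and Cav2 (ENSMUSG00000000058) lie on chromosome 6 of GRCm38, at 17306335 to 17341328 and at 17281185 to 17289130. Cavin1 (ENSMUSG00000004044) lies on chromosome 11 at 100956736 to 100970617, and Cavin2 (ENSMUSG00000045954) on chromosome 1 at 51289126 to 51302960. Cavin3 (ENSMUSG00000037060) and Ehd2 (ENSMUSG00000074364) lie on chromosome 7, at 105480616 to 105482197 and at 15946963 to 15967535. Mfsd2a (ENSMUSG00000028655) lies on chromosome 4 at 122946850 to 122961194, and Plvap (ENSMUSG00000034845) on chromosome 8 at 71497753 to 71511806.

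Caveolae are flask-shaped pits of the plasma membrane. Caveolin-1 and caveolin-2, the products of Cav1 and Cav2, sit in the membrane of the pit, the cavins (products of Cavin1, Cavin2 and Cavin3) form a coat on its inner face, and the ATPase EHD2 rings its neck and holds it at the surface. Most brain capillaries carry few caveolae. MFSD2A, a transporter of lysophospholipids that carry docosahexaenoic acid, is known to keep caveola formation low in capillary endothelium, while brain arteries have many caveolae and little MFSD2A. PLVAP forms the diaphragms that span fenestrae and caveolae, and in the adult brain it marks the leaky vessels of the choroid plexus and circumventricular organs.

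Mice were dosed at 45 mg/kg with AF647-labelled antibody, and the study asked which brain cells held it 24 hours later. ATV-TfR (labelled ATV35.23.2), which binds the transferrin receptor, was given to TfR mu/hu KI mice. ATV-CD98hc (labelled LLB2-10-8 monovalent), which binds the amino acid transporter subunit CD98hc, was given to CD98hc mu/hu KI mice, and a control IgG with no brain receptor to C57BL/6 mice. All 3 antibodies carry the Fc mutations LALAPG, and all mice were 3.3 months old per the sample labels. Treatment and genotype coincide, so they cannot be told apart. Perfused brains, minus the olfactory bulb and the hindbrain (cerebellum, pons, medulla), were dissociated with actinomycin D and anisomycin present and cleared of myelin. Live cells were then sorted by AF647 into negative, low, medium and high bins, whose gates came from the tertiles of positive ATV-TfR cells. A pool joined 1 male with 1 female, every treatment had 2 pools, and each bin of a pool gave 1 library. There were 23 libraries in 12 groups of treatment and bin, with 2 pools in each group except control IgG negative, which has pool 2 alone. The bins of a pool come from the same animals.

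Sequence just upstream of the start sites is shown for 4 members, because Mfsd2a and Ehd2 differed in opposite directions between arterial-like and capillary-like cells and the caveolin pair lie side by side. Each line gives 250 bases, 5′ to 3′ on the gene's strand, from RefSeq's GRCm38.p6 annotation. The capitals mark CTTTG or CAAAG, the same 5-base core of TCF/LEF sites read on either strand, factors through which Wnt signals act on brain endothelium.
Mfsd2a, chr4:122961189-122961438, minus strand: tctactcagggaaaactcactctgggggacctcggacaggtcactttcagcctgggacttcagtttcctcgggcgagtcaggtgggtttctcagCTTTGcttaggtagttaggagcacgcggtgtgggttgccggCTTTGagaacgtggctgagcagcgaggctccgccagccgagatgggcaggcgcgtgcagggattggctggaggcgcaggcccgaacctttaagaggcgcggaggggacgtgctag
Ehd2, chr7:15967536-15967785, minus strand: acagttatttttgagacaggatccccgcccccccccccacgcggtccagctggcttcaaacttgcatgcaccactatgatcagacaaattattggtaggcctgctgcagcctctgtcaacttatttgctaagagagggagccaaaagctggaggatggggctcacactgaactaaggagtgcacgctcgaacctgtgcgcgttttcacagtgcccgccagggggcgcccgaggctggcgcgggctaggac
Cav1, chr6:17306085-17306334, plus strand: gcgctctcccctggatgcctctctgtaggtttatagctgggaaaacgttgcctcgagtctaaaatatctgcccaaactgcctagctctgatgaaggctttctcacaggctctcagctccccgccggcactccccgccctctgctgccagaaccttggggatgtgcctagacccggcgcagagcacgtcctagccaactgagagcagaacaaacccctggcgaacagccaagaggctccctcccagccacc
Cav2, chr6:17280935-17281184, plus strand: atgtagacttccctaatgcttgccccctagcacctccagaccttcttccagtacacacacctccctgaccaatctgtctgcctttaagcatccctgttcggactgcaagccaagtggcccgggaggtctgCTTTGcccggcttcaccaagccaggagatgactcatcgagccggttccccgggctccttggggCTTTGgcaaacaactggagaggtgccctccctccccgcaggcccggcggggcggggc
The motif stood 2 times upstream of Mfsd2a and 2 times upstream of Cav2, and not in the windows of Cav1, Cavin1, Cavin2 and Ehd2. It was present in 48.6% of the 32851 windows of that length in the table, so a match by itself is common. The table had a window for 6 members; Cavin3 and Plvap are named without one.

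After filters, 235249 of 265025 barcodes were kept, from library totals of 1735776 to 79071960 unique molecular identifiers (UMIs). Median depth ran from 2178 to 4963 UMIs per cell, and 8510 of 256352 barcode sequences occurred in more than 1 library. Clusters built without the 8 genes were named by fixed markers, and 97836 cells (41.6%) were endothelial-like, 10 to 16570 per library. The 12 endothelial markers were all detected in these cells in each library with at least 20 of them, with a summed level of 20782 to 32773 CPM (the gene's UMIs divided by all UMIs of the same cells, times 1000000). Endothelial-like cells were sub-clustered into 327 fenestrated-like, 4473 arterial-like, 11940 arterial-capillary-like, 53214 capillary-like, 12511 venous-capillary-like and 1584 venous-like cells. Another 13787 stayed unnamed, 7559 in a sub-cluster led by astrocyte genes and 6228 in one led by pericyte genes. Of the 7 capillary-like sub-clusters, 1 was led by interferon genes and 1 by immediate early genes.

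Across the cell classes, Cav1, Cav2 and Cavin2 were highest in endothelial-like cells, Cavin1, Cavin3 and Ehd2 in smooth muscle-like cells, and Plvap in the fenestrated-like cells. Classes come from clustering, so these levels are a description with no test. Outside the endothelium they are given over the 5 negative-bin libraries, as median and range. Endothelial-like cells were 1.25% to 1.73% of the 4 ATV negative libraries and 22.3% of control IgG negative. Cavin1, whose product is required for caveolae to form, reached a median of 1136 CPM in smooth muscle-like cells (998 to 1334). Its level in pericyte-like cells was 83.1 CPM (64.6 to 131), so those ranges lie far apart. Cavin3 had a median of 758 CPM in smooth muscle-like cells (643 to 810) and Ehd2 one of 280 CPM (277 to 305). Endothelial-like cells of the same libraries had Ehd2 at a median of 242 CPM (128 to 279), so the 2 Ehd2 ranges overlapped. Over the 21 libraries of all bins with at least 20 endothelial-like cells, their Ehd2 median was lower, at 162 CPM (115 to 286). Cav1 had a median of 176 CPM in smooth muscle-like cells and Cav2 one of 95.0 CPM, while Cavin2 was near 0, at 0.4 to 10.9 CPM. Smooth muscle-like cells thus carried transcripts of 2 of the 3 cavins at a high level and almost none of Cavin2.

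Pericyte-like cells had Ehd2 at a median of 152 CPM (144 to 167) and Cav1 at 9.8 CPM (3.3 to 79.6). The highest Cav1 value among them, 79.6 CPM, was that of control IgG negative, which also had Cavin2 at 145 CPM against a median of 21.9 CPM. Over all bins, Cav1 in pericyte-like cells reached up to 200 CPM, and the 12 endothelial markers summed to 12753 CPM there beside 31314 CPM in endothelial-like cells. Neuroglia had a part of the set. Astrocyte-like cells held Mfsd2a at a median of 110 CPM (86.6 to 147) and Cavin3 at 100 CPM (83.2 to 117), with Cav1 at no more than 1.8 CPM. Endothelial-like cells of the same libraries had Mfsd2a at a median of 103 CPM (51.0 to 314). Those negative-bin cells are not typical of the endothelium, since the bins differ in their vessel zones, as given below. Over the 21 libraries of all bins with at least 20 endothelial-like cells, their Mfsd2a median was 226 CPM (51.0 to 482). Oligodendrocyte-like cells held Cavin3 at 210 CPM, ependymal-like cells at 175 CPM and fibroblast-like cells at 205 CPM. Choroid plexus epithelial-like cells held Cavin2 at 61.2 CPM (48.1 to 73.2).

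Along the vessel tree Plvap was a near on-off gene. Levels by zone are means over pools with all bins summed, in pools with at least 20 cells of the zone (5 pools for fenestrated-like cells, 6 for the others). Plvap stood at 3047 ± 709 CPM (SD, n = 5) in fenestrated-like cells, from 2125 to 3816. In the other 5 zones no pool was above 15.4 CPM. The same 327 cells were fenestrated-like at 0.5 and at 2 times the clustering resolution, and 7 of 7 markers of that zone were detected in them without Plvap being among the markers. Of 383 endothelial-like cells with at least 1 Plvap UMI, 317 (82.8%) were fenestrated-like, and of the 301 with at least 3 UMIs 300 were. When each cell was thinned to 1500 UMIs, 92.5% of the fenestrated-like cells had a Plvap UMI and 96.9% before thinning. In arterial-like cells the thinned share was 0.11%, and in microglia-like cells, which should lack the gene, it was 0.2%. Median depth was 3416 UMIs in the fenestrated-like and 3658 in the arterial-like cells.

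**Figure D1:**
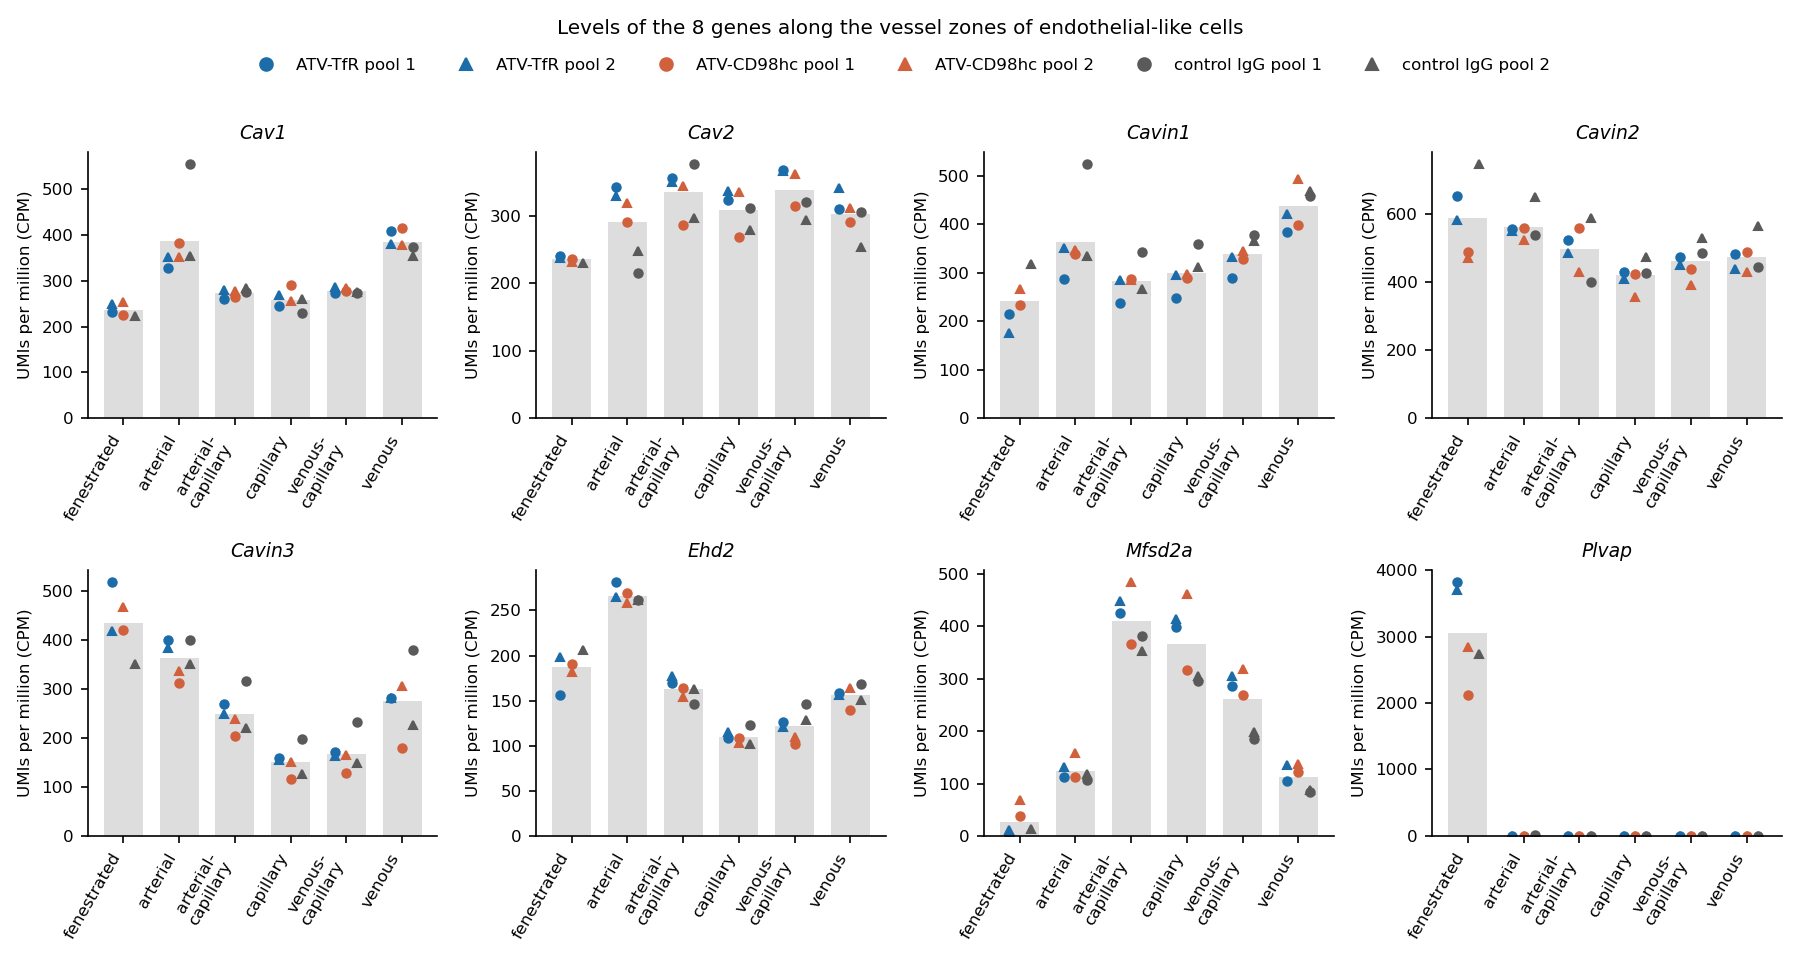
Level of each gene (y axis, CPM, from 0) in 6 vessel zones of the endothelial-like cells (x axis), with 1 point per pool and a grey bar at the mean over pools. Plvap is at 3047 CPM on average in the fenestrated-like zone and at most 15.4 CPM in a pool of any other zone, Mfsd2a is highest in the arterial-capillary-like and capillary-like zones, and Cavin3 and Ehd2 are lowest in the capillary-like zone.

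At the main clustering resolution, Mfsd2a had a hump-shaped profile from artery to vein. The arterial-like level rose at the other resolutions, as given below. At the main resolution Mfsd2a stood at 123 ± 18.8 CPM (SD, n = 6) in arterial-like cells, at 410 ± 51.0 CPM in arterial-capillary-like cells and at 365 ± 68.0 CPM in capillary-like cells. Downstream it was 261 ± 56.1 CPM in venous-capillary-like cells and 112 ± 23.6 CPM in venous-like cells. The arterial-capillary-like and capillary-like ranges overlapped, as did the arterial-like and venous-like ranges, while the highest arterial-like pool (158 CPM) stayed below the lowest venous-capillary-like pool (185 CPM). These levels sum all bins, and the bins differ in their zones: arterial-like Mfsd2a alone ran from 12.6 to 25.4 CPM in the ATV negative libraries and from 151 to 238 CPM in the ATV high ones, so the order of zones holds for the summed bins. In fenestrated-like cells Mfsd2a was lowest, at 26.3 ± 27.9 CPM (SD, n = 5) and 0 to 69.4 CPM by pool (15.5 CPM without ATV-CD98hc pool 2). Of the 301 cells with at least 3 Plvap UMIs, 16 (5.32%) also had a Mfsd2a UMI, and of the 383 with at least 1 Plvap UMI 56 (14.6%) did. In thinned cells 1.63% of fenestrated-like, 14.1% of arterial-like and 44.0% of arterial-capillary-like cells had one, against 0.7% of microglia-like cells.

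Cavin3 and Ehd2 were higher in arterial-like than in capillary-like cells, where Mfsd2a was lower. Ehd2 was 266 ± 8.2 CPM (SD, n = 6) in arterial-like cells and 110 ± 7.9 CPM in capillary-like cells, with no overlap of pools. It stood at 162 ± 11.1 CPM in arterial-capillary-like, 122 ± 15.4 CPM in venous-capillary-like and 156 ± 10.3 CPM in venous-like cells, where the last and the first overlapped. Cavin3 was highest in fenestrated-like cells at 436 ± 62.6 CPM (SD, n = 5), then 364 ± 36.2 CPM in arterial-like cells. It stood at 151 ± 28.9 CPM in capillary-like cells, 116 to 199 CPM by pool, all below the lowest arterial-capillary-like pool at 204 CPM. In venous-like cells it was 277 ± 68.5 CPM.

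The other caveola genes varied less between zones. Cav1 was 387 ± 83.6 CPM in arterial-like and 385 ± 23.1 CPM in venous-like cells (SD, n = 6), against 259 ± 21.2 CPM in capillary-like cells. Control IgG pool 1, with 1 arterial-like pool value of 554 CPM for Cav1 and 523 CPM for Cavin1, stood above the other pools there. That value rests on few arterial-like cells, 15 in its low, 6 in its medium and 0 in its high library. With 1 pool left out, the arterial-like Cav1 mean went as low as 354 CPM. Cavin1 was highest in venous-like cells at 437 ± 42.6 CPM and stood at 300 ± 35.8 CPM in capillary-like cells. Cavin2 ran from 420 ± 37.7 CPM in capillary-like cells to 589 ± 115 CPM in fenestrated-like cells. Cav2 had zone means between 236 CPM (fenestrated-like) and 338 CPM (venous-capillary-like). Cav1 (237 CPM) and Cavin1 (242 CPM) were likewise lowest in the fenestrated-like zone. Arterial-like levels of Cav1, Cavin2, Cavin3, Ehd2 and Mfsd2a moved by more than the spread between pools at another clustering resolution: Mfsd2a there was 316 CPM at 0.5 times and 246 CPM at 2 times the resolution.

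Over the 15 classes and zones, the genes with the profile most like each member were ranked by Pearson's r of log2(CPM + 1), as a description over 12572 genes. Mfsd2a was closest to Slco1c1, a thyroid hormone transporter gene of brain endothelium (r = 0.94), then to Gpd2 and Efr3b. Plvap was closest to Ptprq (r = 0.94), Rbp7 and Btnl9. Cav1 was closest to the endothelial adhesion gene Esam (r = 0.98), Vsig2 and Oip5os1, and Cav2 to Fas (r = 0.99), Ripor1 and Galnt15. Cavin1 was closest to Msrb3, Uaca and Ppil1, Cavin2 to Clic5, Tdrp and Uqcc3, Cavin3 to Ccdc9b, Hdgfl3 and Amotl2, and Ehd2 to Rras, Prss23 and Itga1. The points share libraries and depth. Slco1c1 is also among the capillary markers that named the zones. Plvap stood at 3047 CPM in the fenestrated-like point and at no more than 13.6 CPM in any other, so its r rests mostly on 1 point.

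The AF647 bins held very different stretches of the vessel tree, and every level in the pooled endothelium below has to be read beside that. In the ATV-TfR negative bin 41.5% and 45.0% of endothelial-like cells were arterial-like (pools 1 and 2), and 38.2% and 33.8% were fenestrated-like. In the ATV-TfR high bin 1.6% and 1.7% were arterial-like, none of the 16570 and 15404 cells was fenestrated-like, and 86.8% and 88.1% belonged to the 3 zones with capillary in their name. ATV-CD98hc showed the same order, with 48.8% and 36.2% arterial-like in the negative bin and 0.6% and 0.5% in the high bin. Its fenestrated-like cells were 8.75% and 13.8% of endothelial-like cells in the negative (15 cells), 1.89% and 2.61% in the low (89), 0.12% and 0.14% in the medium (38) and 0.089% and 0.043% in the high bin (13), while ATV-TfR had 74, 31, 2 and 0 such cells. In control IgG the negative library was 64.1% capillary and 6.4% arterial-like. The sub-cluster led by astrocyte genes took 51.9% and 69.9% of endothelial-like cells of ATV-CD98hc low and 43.4% and 53.7% of ATV-TfR medium, but at most 1.9% of any high library of the 2 ATVs.

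**Figure D2:**
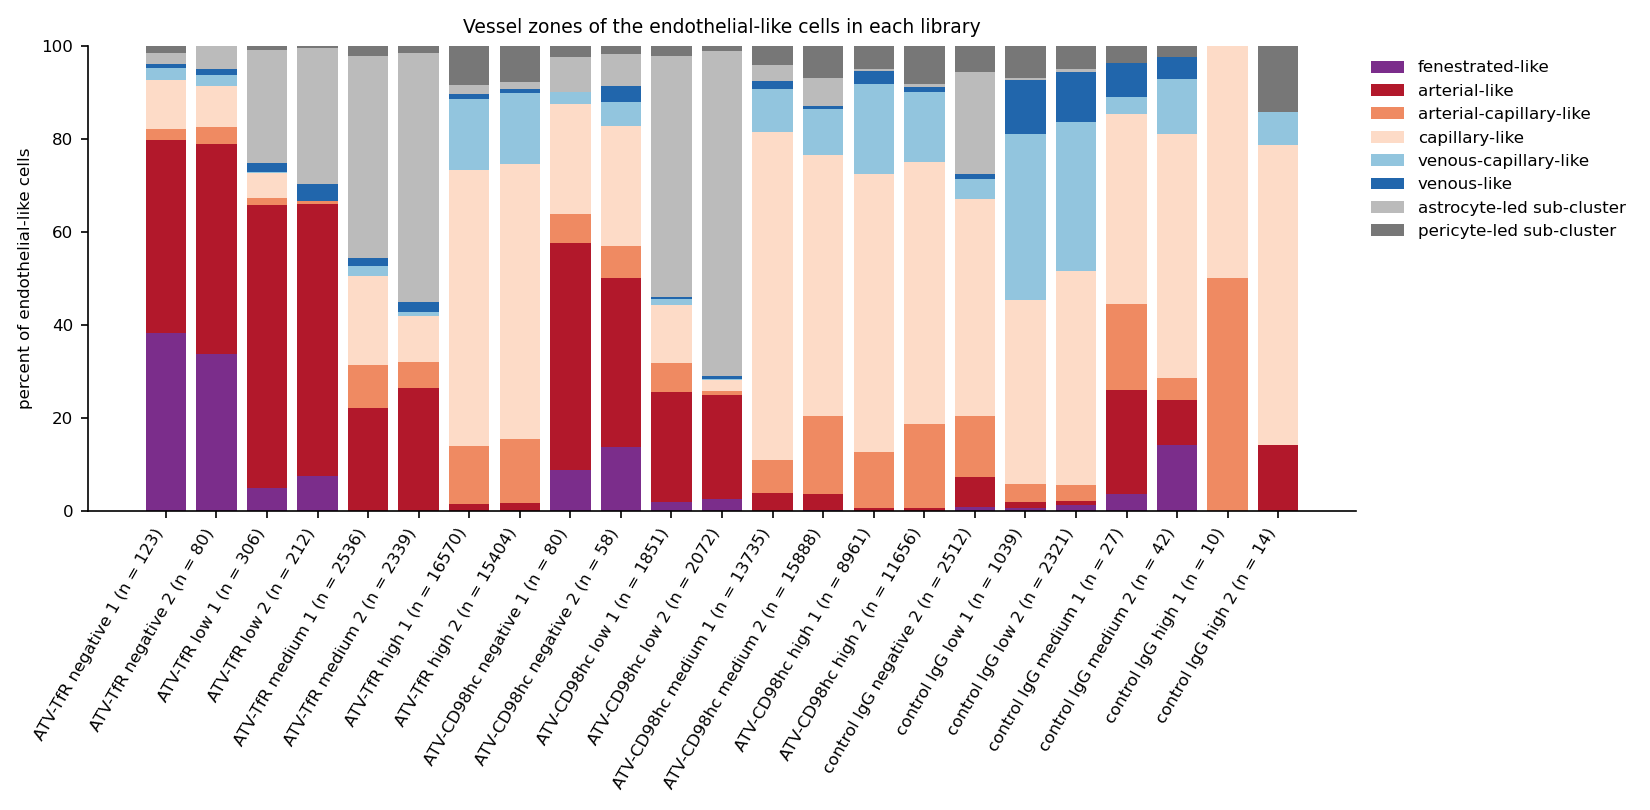
Percent of endothelial-like cells (y axis) in each vessel zone for the 23 libraries (x axis, with the number n of endothelial-like cells). Fenestrated-like and arterial-like cells fill most of the ATV-TfR negative bars, and the 3 capillary zones fill most of the high bars of both ATVs.

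Mfsd2a was higher in endothelial-like cells with more antibody, for both ATVs. In ATV-TfR mice the 2 pools stood at 55.5 and 51.0 CPM in the negative bin, 87.4 and 65.7 in the low, 246 and 248 in the medium and 375 and 392 in the high bin. The order of bins was the same in both pools and no 2 bins overlapped. The share of all genes without such overlap was not taken, here or below, and with 2 libraries in a bin a gap says little by itself. In ATV-CD98hc mice Mfsd2a stood at 103 and 120 CPM in the negative, 194 and 248 in the low, 266 and 386 in the medium and 364 and 482 in the high bin. Here the medium and high bins overlapped. The high minus negative difference in ATV-TfR was 3.04 ± 0.28 on the log2 scale (SE; edgeR quasi-likelihood test, adjusted p = 2.86e-08), higher in 2 of 2 pools. In ATV-CD98hc it was 2.11 ± 0.28 (adjusted p = 1.3e-05, edgeR), also higher in 2 of 2 pools. The call rule is an adjusted p below 0.05. By it 10.2% of 15423 genes were called for ATV-TfR and 5.19% for ATV-CD98hc, and of the 8 members 4 were called for each (1 higher, 3 lower). Here and below, shares over all genes are those of the main edgeR fit and were not taken for the alternative fits. The interaction, that is, the difference between the 2 antibodies, was 0.93 ± 0.41 for Mfsd2a (adjusted p = 0.84, edgeR).

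**Figure D3:**
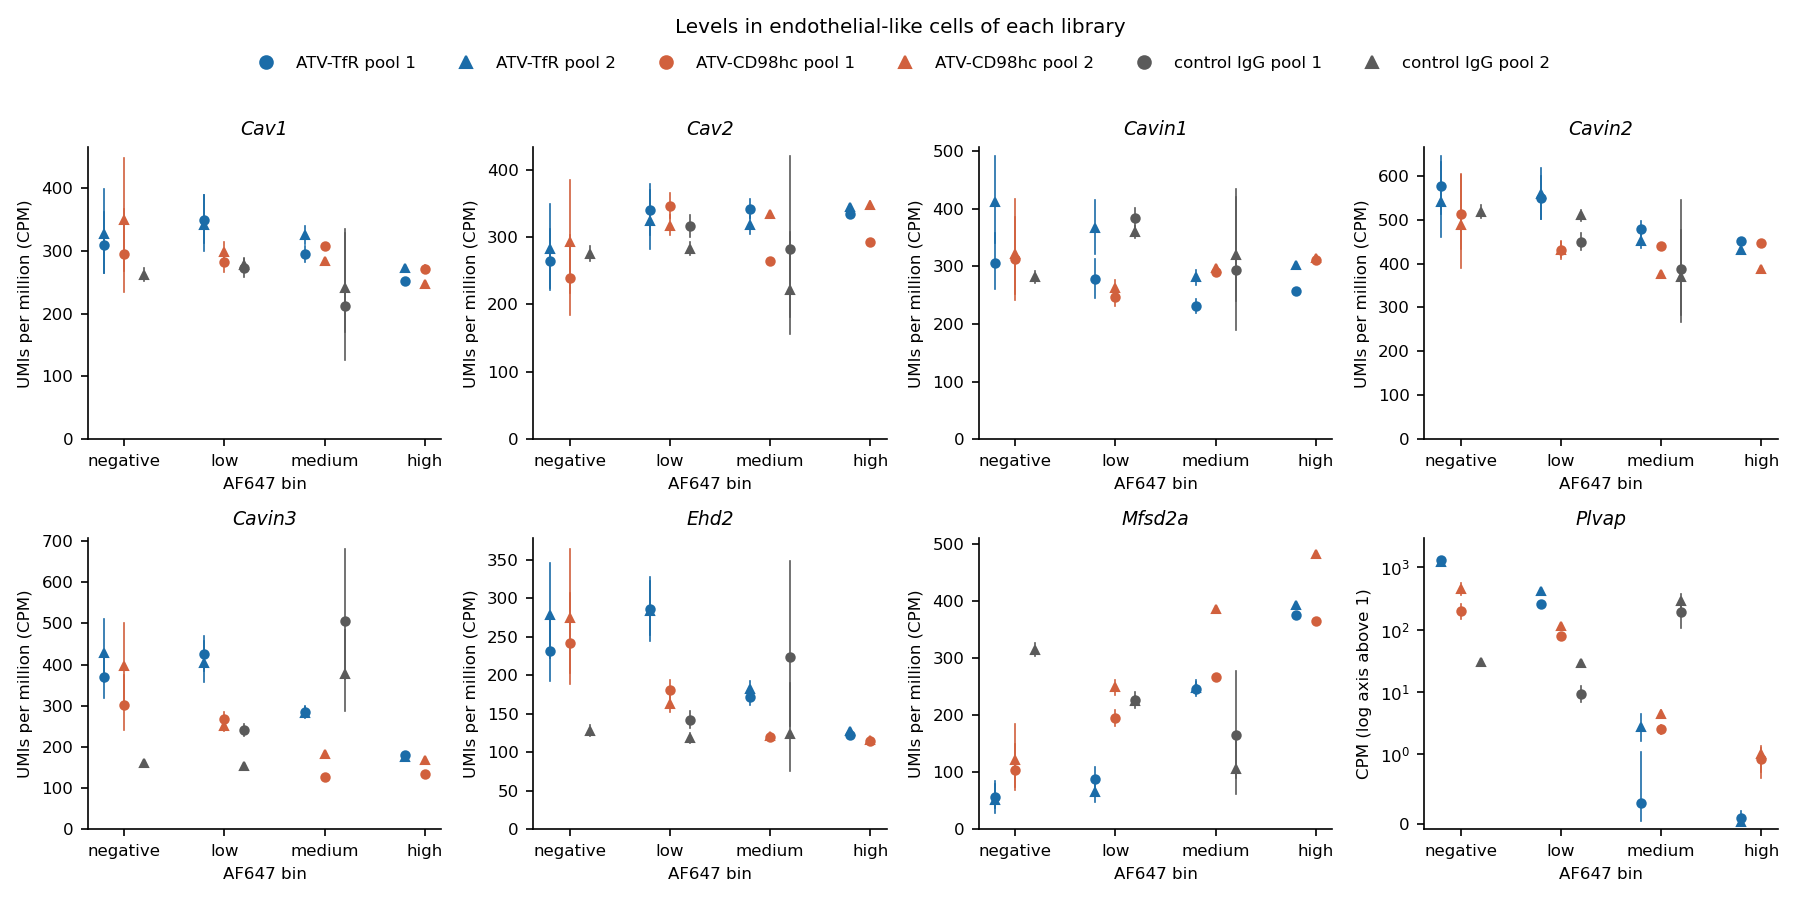
Level of each gene in endothelial-like cells (y axis, CPM; Plvap on an axis that is logarithmic above 1) by AF647 bin (x axis). Each point is 1 library with at least 20 such cells, and the line is its exact 95% Poisson interval, which covers counting error alone. Mfsd2a climbs from 51.0 to 392 CPM over the ATV-TfR bins in pool 2, while Plvap drops from over 1000 CPM to below 1 CPM.

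Plvap went down by orders of magnitude along the same bins. Its levels in ATV-TfR mice were 1297 and 1228 CPM in the negative bin, 256 and 417 in the low and 0.3 and 2.8 in the medium bin. In the high bin 5 and 1 UMIs were counted in all, the pool with 1 UMI at 0.015 CPM beside a mean of 0.048 CPM over both pools. Taken over both pools, the negative level was 26949 times the high level (exact 95% interval 12339 to 73604, counting error only, from 1038 against 6 UMIs). That interval leaves out the spread between pools. In ATV-CD98hc mice Plvap stood at 196 and 447 CPM in the negative, 79.4 and 115 in the low, 2.5 and 4.5 in the medium and 0.9 and 1.0 CPM in the high bin. That ratio was 301 (228 to 400, counting error only, from 133 against 86 UMIs). Both high minus negative differences were called by edgeR, with an adjusted p of 1.46e-12 and 9.74e-10. The difference between the 2 antibodies was called as well, at -6.17 ± 0.91 on the log2 scale (adjusted p = 0.0043, edgeR), in a contrast where 0.0195% of genes were called. That call was lost without ATV-TfR pool 1 (-7.43, adjusted p = 0.34) and without ATV-TfR pool 2 (-5.51, adjusted p = 0.29), and with doublets kept (-3.98, adjusted p = 0.17).

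Without fenestrated-like cells the ATV-CD98hc difference was 4.69 ± 13.2 (adjusted p = 0.91, edgeR), of the opposite sign but with an SE well above it. The ATV-TfR difference was then -6.39 ± 1.62 and still called (adjusted p = 0.016, edgeR), and the difference between the antibodies was -11.1 ± 4.98, not called (adjusted p = 0.96). Each SE was taken from the test statistic of its own contrast, so at these low counts the SEs do not combine across contrasts. Inside fenestrated-like cells, Plvap stood at 3886 and 4040 CPM in ATV-TfR negative and 3627 and 3699 CPM in ATV-TfR low. For ATV-CD98hc it was 2464 and 3854 CPM in the negative, 3291 and 3393 in the low, 1447 and 1914 in the medium and 767 and 2274 CPM in the high bin. The medium libraries, with 16 and 22 such cells, lay below the negative and low ones, and the high libraries held 8 and 5 cells. Mfsd2a in those same cells was counted 0 times in the 4 ATV negative libraries, 25 times in ATV-CD98hc medium and 3 times in ATV-CD98hc high. With so few cells no test was made.

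Cavin3 and Ehd2 were lower in the high bin than in the negative bin with both ATVs. Cavin3 in ATV-TfR mice stood at 370 and 429 CPM in the negative, 425 and 405 in the low, 286 and 283 in the medium and 179 and 176 in the high bin, so negative and low overlapped and the later bins stepped down. In ATV-CD98hc mice it was 303 and 395 CPM in the negative, 268 and 251 in the low, 128 and 182 in the medium and 134 and 169 in the high bin. Ehd2 in ATV-TfR mice was 232 and 279 CPM in the negative, 286 and 284 in the low, 171 and 182 in the medium and 123 and 127 in the high bin. For ATV-CD98hc Ehd2 stood at 242 and 275, 181 and 162, 120 and 121, and 115 and 116 CPM in the same order. No high library overlapped a negative library for either gene, but the same was true of Cav1, which was not called with either ATV. By edgeR, Cavin3 fell by 0.96 ± 0.24 on the log2 scale in ATV-TfR (adjusted p = 0.0084) and by 1.01 ± 0.25 in ATV-CD98hc (adjusted p = 0.015). Ehd2 fell by 0.81 ± 0.19 (adjusted p = 0.0062) and by 0.99 ± 0.21 (adjusted p = 0.0037).

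Without fenestrated-like cells the Cavin3 differences were -0.81 for ATV-TfR and -0.90 for ATV-CD98hc, neither called (adjusted p = 0.07 for each, edgeR), while Ehd2 was called in both. Without ATV-TfR pool 1 or pool 2 the ATV-TfR calls of Cavin3 (-1.15 and -0.79) and Ehd2 (-0.998 and -0.66) were lost. For ATV-CD98hc the count of members called ran from 3 to 4 with 1 pool left out. Smooth muscle markers, which go with high Cavin3 in mural cells, summed to 149 to 221 CPM in ATV-TfR negative endothelial-like cells and to 55 to 65 CPM in the high ones. Pericyte markers went the other way in the same cells, from 146 to 239 CPM in the negative to 571 to 587 CPM in the high libraries. Leaving out cells with 2 or more UMIs of mural markers kept both genes called with both ATVs. Over all endothelial-like cells, however, 1 of the 9 pericyte markers gave 405 of their 512 CPM. The pericyte sum over these cells, and with it this filter, thus rests largely on 1 gene. The part of mural RNA in the Cavin3 and Ehd2 differences was not tested.

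Cav1, Cav2, Cavin1 and Cavin2 did not pass the test between high and negative bins in the edgeR fit without a block. Cav1 was 310 and 327 CPM in ATV-TfR negative and 252 and 273 in ATV-TfR high, without overlap. Its fitted difference, after edgeR's TMM scaling between libraries, was -0.07 ± 0.17 on the log2 scale, while the plain ratio of mean CPM gave -0.28. In ATV-CD98hc Cav1 was 296 and 350 CPM in the negative and 272 and 248 in the high bin (-0.14 ± 0.18 fitted, -0.31 by CPM). In the fits Cavin1 differed by -0.13 ± 0.20 and 0.15 ± 0.21, and Cavin2 by -0.14 ± 0.16 and -0.10 ± 0.17, in the same order of antibodies. All 6 fitted differences lay within their SE. By CPM Cavin1 gave -0.36 and -0.02, so its sign in ATV-CD98hc turned with the scaling, and Cavin2 gave -0.34 and -0.26. Cav2 leaned the other way, from 264 and 282 CPM to 335 and 345 CPM in ATV-TfR (0.52 ± 0.20, adjusted p = 0.099, edgeR) and from 239 and 292 to 292 and 348 CPM in ATV-CD98hc (0.46 ± 0.21, adjusted p = 0.28). With the pool as a block, which pairs bins of the same animals, Cav2 was called in ATV-TfR (0.53, adjusted p = 0.0078).

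**Figure D4:**
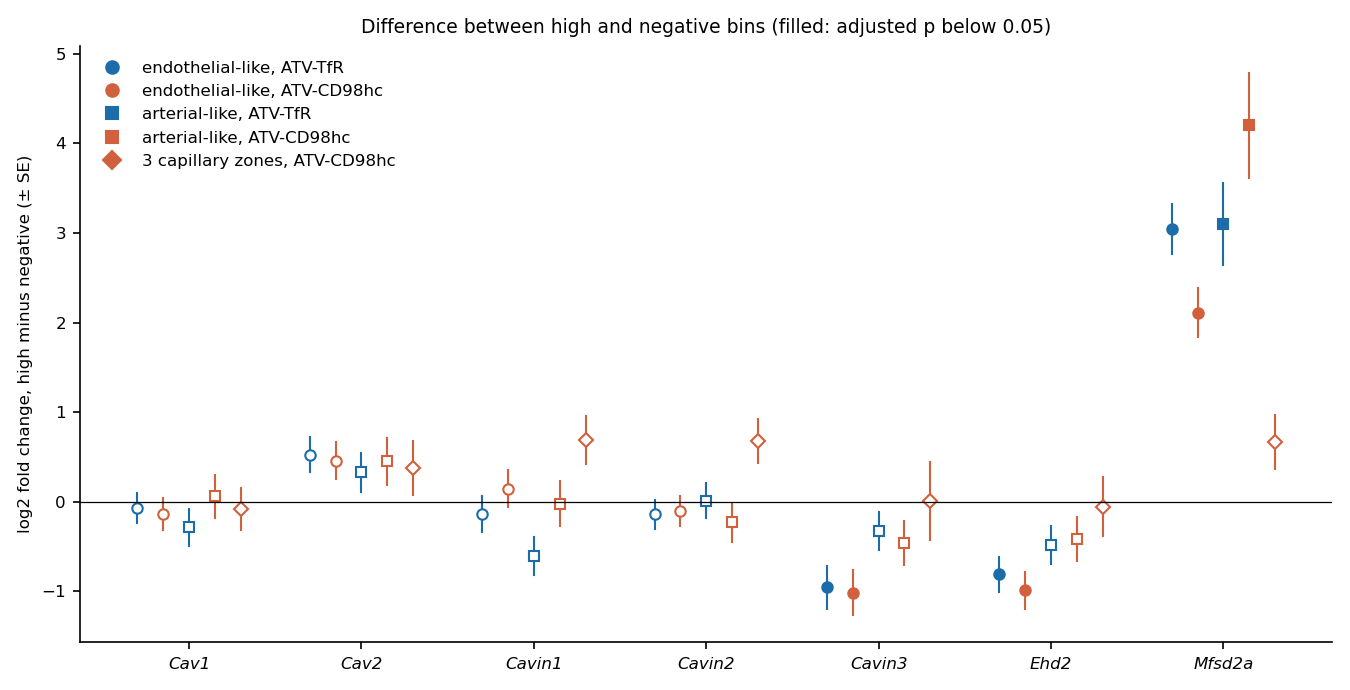
Difference between high and negative bins (y axis, log2 fold change ± SE from edgeR) for 7 genes (x axis), in all endothelial-like cells, in arterial-like cells and in the 3 capillary zones. Filled symbols have an adjusted p below 0.05; Mfsd2a is filled in 4 of its 5 points, and the point within the capillary zones is at 0.66 and open.

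The 2 ATVs were also set against each other in matched bins. In the low bin, Mfsd2a was lower with ATV-TfR than with ATV-CD98hc, at -1.54 ± 0.24 log2 units (adjusted p = 0.00072, edgeR). There Ehd2 was higher by 0.71 ± 0.18 (adjusted p = 0.043) and Plvap by 1.76 ± 0.41 (adjusted p = 0.021), in a contrast with 2.02% of genes called. Arterial-like cells made up 60.8% and 58.5% of the ATV-TfR low and 23.7% and 22.2% of the ATV-CD98hc low libraries. Without the 2 unnamed sub-clusters 1 of these 3 calls was left, Ehd2 being 0.36 and Plvap 0.90, and without ATV-TfR pool 1 or pool 2 none was (Mfsd2a -1.77 and -1.38). In the medium bin Cavin3 was higher with ATV-TfR by 0.82 ± 0.22 (adjusted p = 0.027, edgeR, with 5.59% of genes called). Arterial-like cells made up 22.1% and 26.4% of endothelial-like cells in ATV-TfR medium and 3.8% and 3.5% in ATV-CD98hc medium. The 3 capillary zones made up 30.4% and 16.3% against 86.7% and 82.6%. The part of these shares in the Cavin3 difference was not tested. The Cavin3 call was lost without ATV-TfR pool 1 (0.83), ATV-TfR pool 2 (0.77) or ATV-CD98hc pool 1 (0.60). It was also lost with only the groups compared, with at least 100 cells or without fenestrated-like cells.

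In the high bin Plvap was called, lower with ATV-TfR (-4.15 ± 0.81 log2 units, adjusted p = 0.034, edgeR; 0.136% of genes called). The counts behind it were 6 UMIs in ATV-TfR and 86 in ATV-CD98hc, a ratio of 20.5 (exact 95% interval 9.06 to 57.5, counting error only). Without ATV-TfR pool 1 (-5.45) or pool 2 (-3.48) it was not called. Nor was it without fenestrated-like cells (-1.66), of which ATV-CD98hc high had 13 and ATV-TfR high 0, with doublets kept (-1.94), with only the groups compared (-4.27), with at least 100 cells (-4.20) or with a mean of at least 10 UMIs (-4.17). In the negative bin no member was called by the main edgeR fit (0.0713% of genes called) or by DESeq2. With no filter on low counts, with only the groups compared or without cells with mural UMIs, 1 member was called. In the main edgeR fit 2 had an unadjusted p below 0.05. Those were Plvap, 2.02 ± 0.45 higher with ATV-TfR (adjusted p = 0.12), and Mfsd2a, at -1.05 ± 0.35 (adjusted p = 0.45).

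Against control IgG in the low bin, 4 members were called for ATV-TfR, in a contrast with 12.4% of genes called. Mfsd2a was lower (-1.66 ± 0.24 log2 units), while Cavin3 was higher by 0.97 ± 0.23, Ehd2 by 1.02 ± 0.19 and Plvap by 3.94 ± 0.45 log2 units. The Cavin3 call was lost without ATV-TfR pool 1 (0.98), ATV-TfR pool 2 (0.94) or control IgG pool 2 (0.71). Control IgG low cells were rich in the venous side, with 35.7% and 32.1% venous-capillary-like and 11.7% and 10.7% venous-like cells. For ATV-CD98hc low, also with 12.4% of genes called, Cavin1 was lower (-0.64 ± 0.19, adjusted p = 0.024, edgeR) and Plvap higher by 2.18 ± 0.42 (adjusted p = 0.00064). Without fenestrated-like cells, 89 in ATV-CD98hc low and 38 in control IgG low, these 2 calls became 1. Cavin1 stood at 247 and 262 CPM in ATV-CD98hc low and at 385 and 361 CPM in control IgG low, with no overlap. The Cavin1 call was lost without ATV-CD98hc pool 1 (-0.56), ATV-TfR pool 1 (-0.59), or either control IgG pool (-0.56 and -0.64), and without the unnamed sub-clusters (-0.38). In that last fit Cavin3 (0.75), Ehd2 (0.86) and Plvap (3.28) were higher and Mfsd2a (-0.83) lower in ATV-CD98hc low, all called. The share of all genes called in that fit was not taken, so the count has nothing to be set beside. The control IgG negative group is 1 library, taken in the fit to vary like the other groups. Within control IgG, low minus negative called no member by edgeR or DESeq2 and none had an unadjusted p below 0.05, with 4.18% of genes called. Its Mfsd2a levels were 314 CPM in the negative library and 226 and 225 CPM in the low ones.

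Arterial-like cells taken alone showed the Mfsd2a difference as well. In ATV-TfR mice their Mfsd2a level was 14.7 and 25.4 CPM in the negative bin (3 and 4 UMIs), 51.2 and 31.7 in the low, 102 and 146 in the medium and 172 and 151 in the high bin. In ATV-CD98hc mice it was 13.6 and 12.6 CPM in the negative bin (2 and 1 UMIs), 80.6 and 116 in the low, 120 and 182 in the medium and 238 and 225 in the high bin. No library of a high bin overlapped one of a negative or low bin. The high level was 8.33 times the negative level for ATV-TfR (exact 95% interval 4.01 to 20.9, from 417 against 7 UMIs). For ATV-CD98hc it was 17.4 times (5.84 to 85.3, from 156 against 3 UMIs). Both intervals cover counting error only and leave out the spread between pools. By edgeR the differences were 3.10 ± 0.46 (adjusted p = 3.28e-06) and 4.20 ± 0.59 (adjusted p = 3e-06) log2 units, with 5.85% and 2.00% of 10521 genes called. They were called under every alternative that was run, including arterial-like cells taken at 0.5 and 2 times the resolution. At 0.5 times, however, the arterial-like cluster held 16532 cells instead of 4473, and no arterial-capillary-like zone was named. That fit cannot tell a difference within arterial-like cells from a different mix of zones in the bins. In control IgG negative arterial-like cells Mfsd2a stood at 128 CPM, above the 4 ATV negative libraries.

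The arterial-like cells of the bins were not the same mix. Summed over 10 arterial markers they had 7542 to 8682 CPM in ATV-TfR negative and 1680 to 2275 CPM in ATV-TfR high, while the 7 capillary markers went from 1812 to 2296 CPM up to 6303 to 6678 CPM. For ATV-CD98hc the arterial sum was 4993 to 9077 CPM in the negative and 1886 to 1979 CPM in the high bin, and the capillary sum 1901 to 2817 and 6883 to 7233 CPM. Control IgG negative lay between, with 3908 and 5133 CPM. The part of this shift in the Mfsd2a difference was not tested. Among the caveola genes, Cavin1 was 421 and 533 CPM in ATV-TfR negative and 261 and 340 CPM in ATV-TfR high arterial-like cells. Its difference of -0.61 ± 0.21 was not called by the edgeR fit without a block (adjusted p = 0.09) and was called with the pool as a block (-0.62, adjusted p = 0.0088). Ehd2 differed by -0.48 ± 0.21 and -0.42 ± 0.25 and Cavin3 by -0.33 ± 0.21 and -0.46 ± 0.24, in ATV-TfR and ATV-CD98hc, none of them called. Plvap had at most 3 UMIs in any ATV arterial-like library, so no ratio is given.

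**Figure D5:**
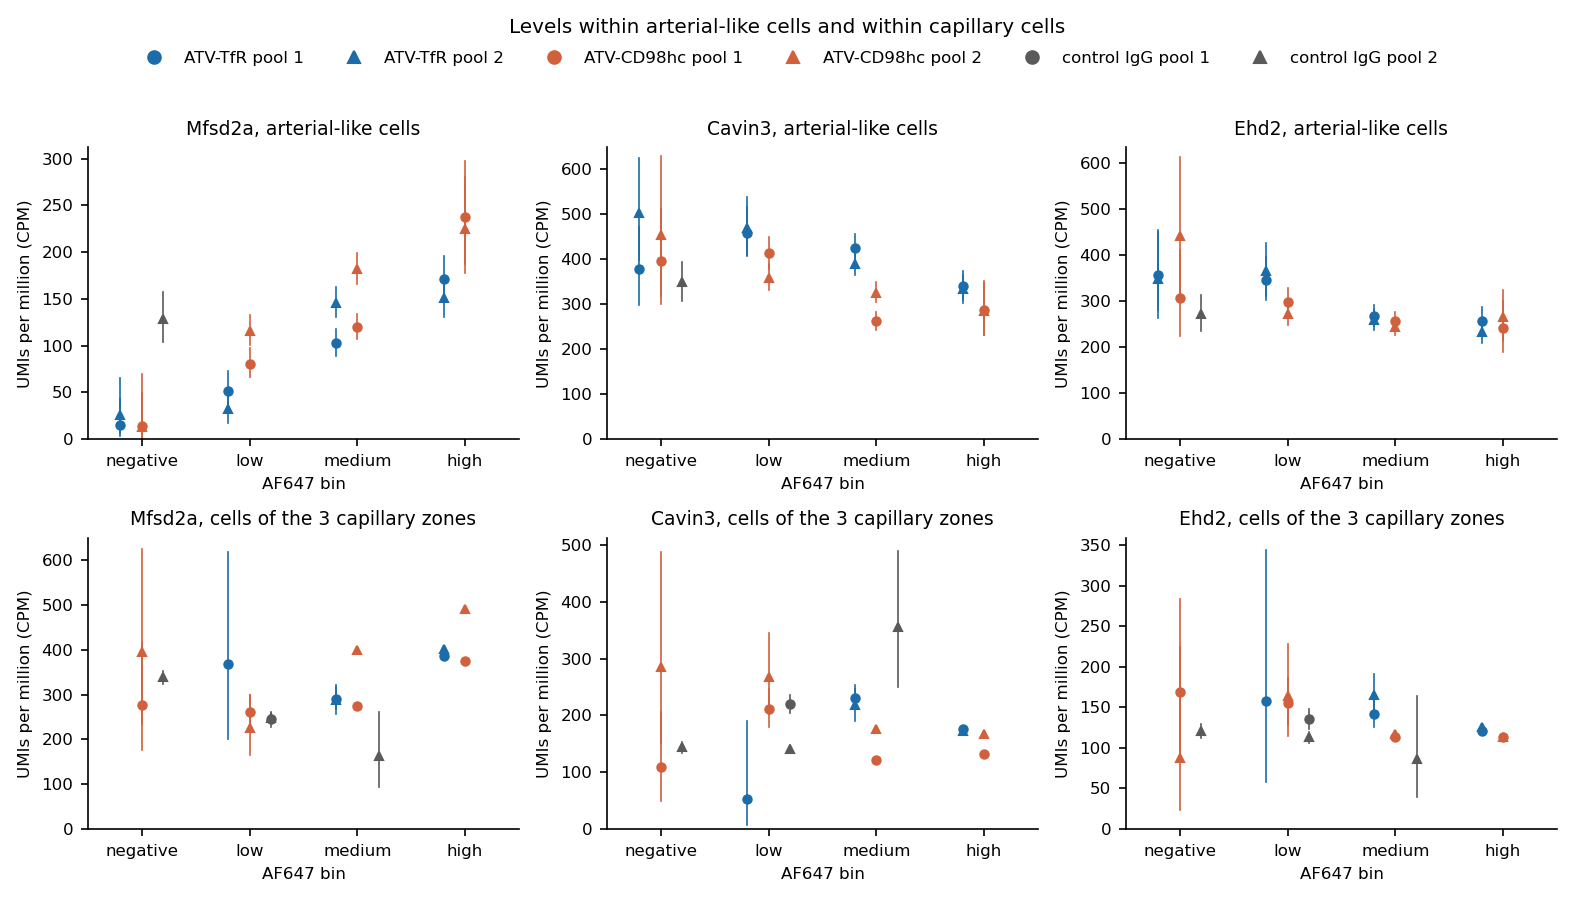
Levels of Mfsd2a, Cavin3 and Ehd2 (y axis, CPM) by AF647 bin (x axis) in arterial-like cells (top) and in cells of the 3 capillary zones (bottom), for libraries with at least 20 such cells; lines are exact 95% Poisson intervals. In arterial-like cells Mfsd2a is at 12.6 to 25.4 CPM in the 4 ATV negative libraries and at 151 to 238 CPM in the high ones, and in the capillary zones the negative and high libraries of ATV-CD98hc overlap for Mfsd2a.

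Within the pooled 3 capillary zones, none of the 7 members tested was called between bins or between antibodies in the main edgeR fit. Plvap did not pass the filter on low counts there and was not tested. For ATV-CD98hc, Mfsd2a was 277 and 395 CPM in the negative bin (26 and 22 cells) and 374 and 491 CPM in the high bin, a difference of 0.66 ± 0.30 log2 units (adjusted p = 0.49, edgeR). Cavin3 differed by 0.01 ± 0.44 and Ehd2 by -0.05 ± 0.33, beside a median of 0.43 over all genes. Cavin1 differed by 0.69 ± 0.27 and Cavin2 by 0.68 ± 0.25 (adjusted p = 0.43 and 0.38, edgeR), and with Mfsd2a they were the 3 members with an unadjusted p below 0.05. Here 0.155% of 13565 genes were called, and DESeq2 called no member either. ATV-TfR negative had 19 and 12 such cells, below the minimum of 20, so its high bin was set against its medium bin. There Mfsd2a was 291 and 287 CPM in the medium and 386 and 402 CPM in the high bin, without overlap but not called (0.60 ± 0.24, adjusted p = 0.31, edgeR). In that contrast 3.21% of genes were called, DESeq2 called no member, 2 members had an unadjusted p below 0.05, and with the pool as a block 1 was called. For ATV-CD98hc, high minus medium gave 0.40 ± 0.23 for Mfsd2a and called no member (1.82% of genes called; none by DESeq2 or at an unadjusted p below 0.05). Between the antibodies, the high capillary cells differed by -0.11 ± 0.23 for Mfsd2a, 0.16 ± 0.19 for Ehd2 and 0.25 ± 0.27 for Cavin3. No member was called by edgeR or DESeq2 and none had an unadjusted p below 0.05, with 0.0295% of genes called.

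Genes that work beside the members were counted from 4 lists. Of 15 genes of caveola accessories, 14 were tested over endothelial-like cells, and 2 were lower in ATV-TfR high than negative cells, where 10.2% of all genes were called, with a list median of -0.36 beside 0.14 over all genes. Those were Ehd4, an EHD2 relative (-2.69 ± 0.19), and the flotillin gene Flot2 (-1.86 ± 0.34). In ATV-CD98hc, with 5.19% of all genes called, 1 of 14 was lower, again Ehd4 (-1.51 ± 0.20), with a median of -0.19 beside 0.18. Inside ATV-TfR arterial-like cells Nos3, the endothelial nitric oxide synthase gene, was lower (-1.09 ± 0.22), as was Ehd4 (-0.86 ± 0.22), 2 of 10 tested where 5.85% of all genes were called. The first 2 of these counts are near the share over all genes. None of the 11 clathrin coat genes was called between high and negative bins with either antibody, and their medians of 0.14 and 0.44 stood beside 0.14 and 0.18 over all genes.

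Of 10 genes of lysophospholipid and fatty acid handling, 1 was higher and 1 lower with each antibody, where 10.2% and 5.19% of all genes were called. The list medians were 0.56 and 0.24 beside 0.14 and 0.18 over all genes. In ATV-TfR Acsl3, which activates long-chain fatty acids, was higher by 1.42 ± 0.23, and the fatty acid binding gene Fabp5 had a difference of -3.20 ± 0.74. Astrocyte markers in the endothelial-like cells moved with the bins as well, from 804 to 1388 CPM summed over 8 genes in ATV-TfR negative to 152 to 157 CPM in ATV-TfR high, and their part in the Fabp5 difference was not tested. In ATV-CD98hc Spns2, a sphingosine-1-phosphate exporter gene, was higher by 1.57 ± 0.34 and the fatty acid receptor gene Cd36 was lower (-7.78 ± 1.31). Of 8 genes of fenestrated endothelium and VEGF signals, 5 were lower in ATV-TfR high cells and 2 in ATV-CD98hc high cells, where 1 was higher, again beside 10.2% and 5.19% of all genes called. The list medians were -1.60 and 0.04. Esm1, an endothelial proteoglycan gene, differed by -13.13 ± 0.63 and -4.96 ± 1.16, and Plpp3, a lipid phosphatase gene, by -5.58 ± 0.32 and -4.32 ± 0.32. In ATV-CD98hc the VEGF receptor gene Kdr was higher by 0.73 ± 0.18. Esm1, Plpp3, Emcn and Aplnr of this list are among the markers that named the fenestrated-like zone, so they are no separate evidence for it. Kdr and Flt1 are among the markers that named the endothelial-like cells.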

How the data were processed

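The members and gene lists were chosen with earlier results of these data known. The authors deposited raw UMI counts per gene and barcode, made with Cell Ranger 7.1.0 per the file headers; the submitters' processing notes name mm10 (GRCm38) and Seurat 4 and 5. The authors' other deposited files list barcodes and genes. Barcodes with at least 500 genes, 800 UMIs and at most 10% mitochondrial UMIs were kept, and doublets scored within each library (scanpy 1.11.5, Scrublet) were removed, 14466 of 249715. The caller's own threshold was used in 15 libraries and percentile 94 of the score in 8, where it marked under 0.5% or over 25%.

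Cells were clustered without the 8 genes, Tfrc, Slc3a2 and sex, mitochondrial and ribosomal genes (2000 variable genes, 50 components, 15 neighbours, resolution 1), and named by fixed markers. Rules set after the data were seen withheld a name from clusters that passed several lists, unless at least 5 of their 10 leading genes were own markers and none was of another passing list, and from endothelial sub-clusters with at least 2 markers of 1 other class among them; unnamed cells were 0.3% to 7.8% of a library. UMIs were summed per library and class (at least 20 cells) and tested with edgeR 4.0.16 (quasi-likelihood, TMM, filterByExpr, all groups in 1 fit) with Benjamini-Hochberg adjustment over all genes tested. P-values measure the spread between 2 pools a group (control IgG negative has 1). Planned tests in capillary-like cells were run on the 3 zones with capillary in their name pooled, since capillary-like cells alone were below 20 in a library. All 8 members and up to 3 called genes of each list are named. Alternatives included DESeq2 1.42.0. In data simulated for ATV-TfR high against negative, 18 of 91 genes changed 2-fold and 69 of 94 changed 4-fold were recovered, with 4 false calls among 14506 genes.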

Additional observations from a re-analysis of the deposited data

Results flagged for a closer look

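The high minus negative difference of Plvap in endothelial-like cells differed between the 2 ATVs by the test of the difference itself, at -6.17 log2 units: the gene dropped further with ATV-TfR than with ATV-CD98hc. Fenestrated-like cells numbered 74, 31, 2 and 0 in the negative, low, medium and high bins of ATV-TfR and 15, 89, 38 and 13 in those of ATV-CD98hc. Without those cells the difference was -11.1 ± 4.98 and not called. The call was also lost without ATV-TfR pool 1 (-7.43), without ATV-TfR pool 2 (-5.51) and with doublets kept (-3.98).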

How the results depend on the processing

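Outside the replicates left out, 125 of 155 counts of members called stayed within 1.5 times the main count. Shares of all genes called were not taken for the alternatives, so a changed count may go with more or fewer calls over all genes. Of 428 differences of single members, 370 kept their sign and their side of the call rule. Of 140 levels, 124 stayed within 1 SD of the main level. The Mfsd2a calls between high and negative bins, over endothelial-like and arterial-like cells with both ATVs, held in every setting run. The 4 members called for ATV-CD98hc fell to 2 without fenestrated-like cells. The interaction called 1 member and 0 with doublets kept or without fenestrated-like cells. In the negative bin 0 became 1 with no filter on low counts, with only the groups compared or without cells with mural UMIs. The 3 calls of the low bin became 5 with only the groups compared and 1 without the unnamed sub-clusters. In the medium bin 1 became 2 with DESeq2, with no filter or without mural UMIs, 3 without the unnamed sub-clusters, and 0 with only the groups compared, with at least 100 cells or without fenestrated-like cells. In the high bin 1 became 0 with a mean of at least 10 UMIs, with only the groups compared, with doublets kept, with at least 100 cells or without fenestrated-like cells. Against control IgG, the 2 calls of ATV-CD98hc became 1 without fenestrated-like cells and 4 without the unnamed sub-clusters. In arterial-like cells the 1 call of ATV-TfR became 2 with DESeq2, with the replicate block or at 2 times the resolution, and 3 with only the groups compared or at 0.5 times; that of ATV-CD98hc became 3 at 0.5 times. In the capillary zones the 0 calls of high minus medium in ATV-TfR became 2 with only the groups compared and 1 with the replicate block. The block changed no other count by over 1.5 times; its Cav2 and Cavin1 values stand in the report.

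With 1 pool left out at a time, counts ran from 2 to 4 for ATV-TfR high minus negative, from 3 to 4 for ATV-CD98hc, from 0 to 1 for the interaction, the negative bin and the high bin, from 0 to 3 for the low bin and from 0 to 2 for the medium bin. They ran from 1 to 2 for ATV-CD98hc against control IgG, from 1 to 3 in ATV-TfR arterial-like cells and from 0 to 1 for high minus medium in the ATV-TfR capillary zones. Where a fit leaves 1 library in a group, that library is taken to vary like the others.

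Signs turned for members that were not called, and for Plvap in ATV-CD98hc, which was. In ATV-TfR high minus negative, Cav1 was 0.087 with no filter and 0.042 without mural UMIs, Cavin1 0.022 with no filter and 0.070 with at least 100 cells, and Cavin2 0.016 with no filter and 0.034 without fenestrated-like cells. In ATV-CD98hc, Cavin1 was -0.031 with RLE factors and -0.030 with DESeq2, Cavin2 0.073 without mural UMIs, and Plvap 4.69 without fenestrated-like cells. With pools left out, Cavin1 in ATV-TfR ran from -0.31 to 0.0097 and Cav1 in ATV-CD98hc from -0.30 to 0.017. In ATV-TfR arterial-like cells Cavin2 was -0.051 with RLE factors, -0.050 with DESeq2, -0.044 with a mean of at least 10 UMIs, -0.032 with only the groups compared and -0.015 at 0.5 times the resolution, and from -0.11 to 0.12 with pools left out. In ATV-CD98hc arterial-like cells Cav1 was -0.00064 with RLE factors, -0.046 with only the groups compared, -0.39 at 0.5 times and -0.50 at 2 times the resolution, and from -0.32 to 0.37 with pools left out. Cavin1 there was 0.00068 with no filter and Ehd2 0.055 without mural UMIs.

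Zone levels moved with the cut between zones. At 0.5 times the resolution, arterial-like Cav1 was 302, Cavin2 514, Cavin3 278, Ehd2 191 and Mfsd2a 316 CPM. At 2 times, arterial-like Cavin2 was 622, Ehd2 251 and Mfsd2a 246 CPM, venous-like Cav2 272, Cavin1 521, Cavin3 370, Ehd2 167 and Mfsd2a 57.0 CPM, and capillary-like Ehd2 120 CPM. With doublets kept, Ehd2 was 268 CPM in smooth muscle-like and 143 CPM in pericyte-like cells. With a pool left out, 242 of 242 levels stayed within 1 SD of the value over all pools. A mean cannot move further than that when 1 of its values is dropped, so this count says nothing on stability. Fenestrated-like Mfsd2a ran from 15.5 to 32.8 CPM with a pool left out. Where no cause is named above, the cause was not tested.

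High minus negative in control IgG was not run, since its high libraries held 10 and 14 endothelial-like cells, nor was high minus negative in the capillary zones of ATV-TfR, with 19 and 12 cells. With at least 100 cells several comparisons gave no value, at 0.5 times the resolution there was no venous-like zone, and no paired analysis was possible between treatments because their pools are different animals. Without fenestrated-like cells, without the unnamed sub-clusters and arterial-like cells at other resolutions were chosen after seeing the data, as were the arterial, high minus medium and control IgG low minus negative comparisons. The ATV negative libraries held 58 to 123 endothelial-like cells each, which limits the precision of their levels.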

Other observations

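The control IgG medium bin entered no comparison and held few endothelial-like cells, 27 and 42. In them Plvap stood at 188 and 284 CPM, from 16 and 46 UMIs, above the 29.8 CPM of the control IgG negative library. Mfsd2a was 165 and 105 CPM and Cavin3 506 and 376 CPM. Of those cells 7 were fenestrated-like and 10 arterial-like.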
